A study of Anas platyrhynchos with 6 samples.

Results

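NRN1 encodes neuritin, a small protein held on the outer face of the cell membrane by a glycosylphosphatidylinositol (GPI) anchor, from which it can also be shed. It is best known from rodent neurons, where electrical activity and neurotrophins induce it and where it promotes the growth of neurites and the stability of synapses. The values described here are RNA levels of this 1 gene, 1 of 17169 transcripts measured, in ovarian tissue of 6 female ducks (Anas platyrhynchos). The ducks were 71 weeks old and came from a full-sib family. They formed a group of 3 with a high egg number (HEN) and a group of 3 with a low egg number (LEN), each duck giving 1 library. All 6 had been deprived of feed before they were killed, and the labels give no treatment or genetic change. The row was found by its symbol, which stood on 1 row of the table. NRN1 was selected on these same measured levels, so they are given with no test of their difference between groups.

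Ovarian tissue of a laying bird holds oocytes of many sizes, the granulosa cells around each oocyte, theca cells outside them, and a stroma of fibroblasts, smooth muscle, vessels and leukocytes. A growing oocyte stores large amounts of RNA for the embryo. The tissue was measured in bulk, so fewer cells of a type and less RNA per cell cannot be told apart in any value given below.

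NRN1 was among the most abundant transcripts of 4 ovaries and was at the edge of detection in the other two, both of them HEN ovaries. Its level was 606, 0.456 and 0.235 FPKM (fragments scaled to transcript length and library size) in replicates 1, 2 and 3 of HEN, and 638, 472 and 949 FPKM in those of LEN. Here and below, values by ovary are in the order of replicates 1, 2 and 3 of each group. HEN replicate 1 lay inside the LEN range, between LEN replicates 2 and 1, so the groups overlapped. The other HEN ovaries lay below all LEN ovaries. Means were 202 FPKM with an SD of 349.9 for HEN and 686 FPKM with an SD of 242 for LEN (n = 3 ducks in each).

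**Figure D1:**
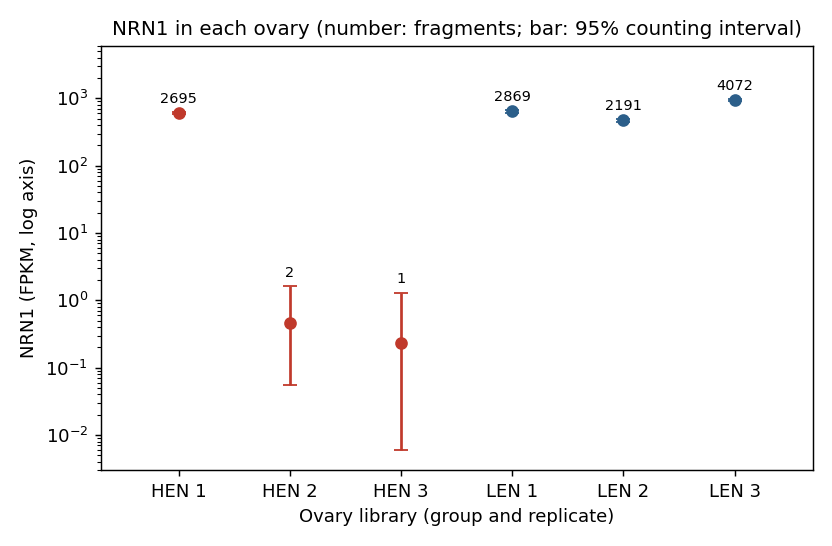
NRN1 level in FPKM on a log axis for each ovary, HEN in red and LEN in blue; the number at each point is the inferred fragment count and the bar its 95% counting interval. HEN replicate 1 (606 FPKM) sits with the LEN ovaries (472 to 949 FPKM), and HEN replicates 2 and 3 sit below 1 FPKM.

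The annotated NRN1 transcript (ENSAPLT00000011916, gene ENSAPLG00000011452) is 1 uninterrupted stretch of 234 bases on the forward strand of scaffold KB742490.1, from 1566217 to 1566450, and overlaps no other gene of the table. That is shorter than the coding sequence of neuritin in mammals, so the values cover part of the gene. At this length the deposited values corresponded to whole fragments, 2695, 2 and 1 in HEN replicates 1, 2 and 3 and 2869, 2191 and 4072 in LEN replicates 1, 2 and 3. One fragment on this model equalled 0.215 to 0.235 FPKM. The low HEN values therefore rested on 3 fragments in all, out of 18756660 and 18213744 fragments in those libraries.

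Counting error alone left the order of the ovaries partly unresolved. In FPKM the order was LEN replicate 3, LEN replicate 1, HEN replicate 1, LEN replicate 2, HEN replicate 2 and HEN replicate 3, and it was the same after scaling to TPM, to the upper quartile, by trimmed means or by quantiles. HEN replicate 1 relative to LEN replicate 1 gave a ratio of 0.951 (95% counting interval 0.902 to 1.00), so these neighbours did not differ beyond counting error. Neither did HEN replicate 2 and HEN replicate 3, at a ratio of 1.94 (0.101 to 115). HEN replicate 1 was above LEN replicate 2 by a ratio of 1.28 (1.21 to 1.36), and LEN replicate 1 relative to LEN replicate 3 gave 0.672 (0.640 to 0.705). Between ovaries of the same HEN label the ratios were far larger, 1331 (368 to 10993) for replicate 1 over replicate 2 and 2584 (463 to 102109) for replicate 1 over replicate 3. The intervals are exact and cover counting error only, since PCR copies cannot be separated.

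On the log2(FPKM + 1) scale the HEN minus LEN difference in NRN1 was -6.00 ± 2.25 (SE of the limma fit), with SDs of 5.10 in HEN and 0.50 in LEN (n = 3 each). The size of this difference depended on which HEN ovaries were included. Without HEN replicate 1 it was -8.94 ± 0.29, with HEN values that rested on a few fragments. Without HEN replicates 2 and 3 it was -0.12, smaller than the SD among LEN ovaries. That fit had 1 HEN duck, so no spread among HEN ovaries entered it.

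Within each library NRN1 ranked 55th, 12755th and 13488th from the top in HEN replicates 1, 2 and 3 and 39th, 64th and 21st in LEN replicates 1, 2 and 3. It exceeded 99.7%, 25.7% and 21.4% of transcripts in the HEN libraries and 99.8%, 99.6% and 99.9% in the LEN libraries. Transcripts at 0 made up 14.3% and 14.1% of all in HEN replicates 2 and 3, so NRN1 lay there among the lowest detected transcripts. In HEN replicate 1 the named transcripts next to it in level were RPL26 (607 FPKM) and RPL9 (597 FPKM), both proteins of the large ribosomal subunit. Its neighbours in LEN replicate 3 were the ribosomal protein genes RPS24 (953 FPKM) and RPL14 (909 FPKM). The translation elongation factor gene EEF1A1 was the highest named transcript in both of these libraries, at 3988 FPKM in HEN replicate 1 and 4249 FPKM in LEN replicate 3. NRN1 took 0.135% of all FPKM in HEN replicate 1 and 0.148%, 0.113% and 0.195% in LEN replicates 1, 2 and 3.

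The short model weighs on that rank, because FPKM divides by length. By fragments not divided by length, a ranking added after seeing the data, NRN1 exceeded 94.7%, 7.87% and 4.69% of 14890 protein-coding transcripts in HEN replicates 1, 2 and 3 and 94.9%, 91.9% and 97.3% in LEN replicates 1, 2 and 3. All these rankings rest on the same NRN1 fragments, so the separation of 4 ovaries from HEN replicates 2 and 3 is not a second observation.

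The HEN libraries were unlike each other over the whole transcriptome. Across the 13328 transcripts tested, log2 levels correlated at 0.965 between HEN replicates 2 and 3 and more weakly with HEN replicate 1 (0.748 and 0.752), which went with the LEN libraries (0.933 to 0.964). For 47.5% of the transcripts tested, HEN replicates 2 and 3 were the lowest libraries, and for 19.6% they were the highest. With group as the only term, limma called 0 transcripts between HEN and LEN at a Benjamini-Hochberg adjusted p under 0.05 (0.00% of those tested), and 2929 (22.0%) had an unadjusted p under 0.05, 680 (5.10%) with a higher and 2249 (16.9%) with a lower HEN level. On leaving out HEN replicate 1 it called 6501 (48.8%), 1569 higher and 4932 lower in HEN. The median difference over all transcripts was -0.24 as deposited and 0.01 after upper quartile scaling, so small negative list medians below are to be read against that shift.

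Among transcripts higher in HEN replicate 1 than in HEN replicates 2 and 3, NRN1 was close to the top. Gaps in the other direction were not ranked. In HEN replicate 1 its log2 level was higher by 8.70 than in HEN replicate 2, a gap that 1 of 13328 transcripts exceeded in this direction. It was higher by 8.94 than in HEN replicate 3, a gap exceeded in this direction by 0 transcripts. Both figures are descriptions of single libraries, with no replicate behind them, and NRN1 was chosen with such values known. For a transcript near 0 in the low ovary, a gap in log2(FPKM + 1) follows its FPKM in HEN replicate 1. That FPKM depends on the length of the transcript model.

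NRN1 was then set beside markers of oocytes, granulosa and stroma. Because 2 of the 6 ovaries stand apart, no correlation across ovaries is given, and levels are set side by side instead. Oocyte and germ cell markers had the same 4 high and 2 low ovaries as NRN1. All 11 of the 18 listed markers that were in the table passed the filter, and all 11 were lowest in HEN replicates 2 and 3, where 47.5% of all transcripts were. Their summed level was 955, 3.93 and 5.88 FPKM across the HEN ovaries, against 1404, 949.97 and 2337 FPKM across the LEN ovaries. The 4 ovaries with abundant NRN1 stood in the same order for this sum as for NRN1, although HEN replicate 1 and LEN replicate 2 were almost level in it. Between HEN replicates 2 and 3 the order was the opposite of that of NRN1, which had 2 and 1 fragments there. Of the 11 markers taken singly, 5 kept that order of 4 ovaries, as 8.72% of all transcripts tested did.

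**Figure D2:**
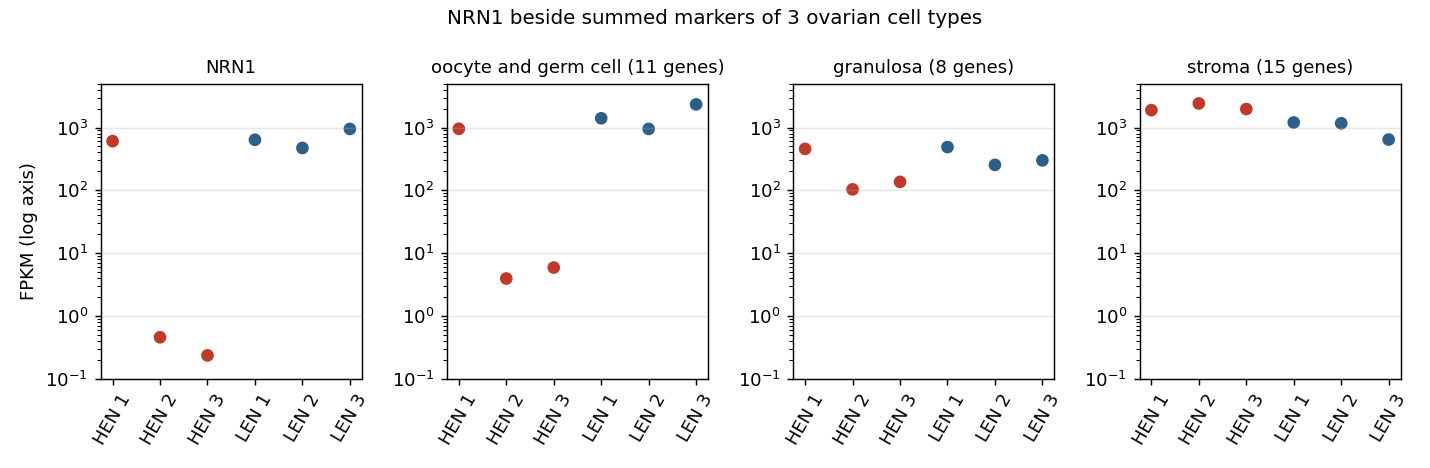
NRN1 level and the summed levels of 11 oocyte and germ cell, 8 granulosa and 15 stroma markers in each ovary, in FPKM on log axes, HEN in red and LEN in blue. HEN replicates 2 and 3 are low for NRN1 and for the oocyte markers (3.93 and 5.88 FPKM summed), lower by less for granulosa markers and not low for stroma markers.

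ZP2, one of the proteins that build the egg envelope, had 219, 0.152 and 1.72 FPKM across the HEN ovaries and 309, 252 and 704 FPKM across the LEN ovaries. KPNA7, an importin alpha of oocytes, was at 166, 0.067 and 0.347 FPKM across HEN ovaries, against 219, 139 and 395 FPKM across LEN ovaries. BTG4, an adaptor of the deadenylase that clears maternal mRNA, was at 160.2, 0.234 and 0.321 FPKM across HEN ovaries, against 240.4, 152 and 371 FPKM across LEN ovaries. In each of them HEN replicates 2 and 3 were near 0 and HEN replicate 1 was near the lowest LEN ovary.

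WEE2, a kinase that holds oocytes in meiotic arrest, was at 98.8, 0.063 and 0.290 FPKM across HEN ovaries and 171, 102 and 215 FPKM across LEN ovaries. The egg coat gene ZP4, named through its Entrez identifier, was at 74.2, 0.098 and 0.608 FPKM across HEN ovaries, against 102, 92.4 and 275 FPKM across LEN ovaries. DAZL, an RNA-binding protein of germ cells also named that way, was at 89.4, 0 and 0.124 FPKM across HEN ovaries and 142, 86.0 and 149 FPKM across LEN ovaries. DAZL and the germ cell helicase DDX4 were the markers listed at 0 in HEN replicate 2, a count that allows up to 3 fragments.

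On the FPKM scale NRN1 was above every one of the 11 oocyte markers in HEN replicate 1 and in all LEN ovaries. In FPKM it was 2.77 times ZP2 in HEN replicate 1 and 2.06, 1.87 and 1.35 times ZP2 in LEN replicates 1, 2 and 3. By fragments not divided by length, ZP2 was above NRN1 in these ovaries, at 8750 against 2695 in HEN replicate 1. KPNA7 and WEE2 were also above it in all of them, BTG4 and ZP4 in some, and the other markers in none. Relative to the summed oocyte markers NRN1 was 0.635 in HEN replicate 1 and 0.454, 0.497 and 0.406 in LEN replicates 1, 2 and 3. In HEN replicates 2 and 3 that ratio was 0.116 and 0.040, on 2 and 1 NRN1 fragments. The largest terms of the sum in HEN replicate 2 were BMP15 (1.12), PIWIL1 (1.06) and TDRD1 (1.03 FPKM). Over single markers the ratio there was 2.996 for ZP2, 6.77 for KPNA7 and 7.27 for WEE2, above HEN replicate 1 (2.77, 3.65 and 6.14). It was below HEN replicate 1 for BTG4 (1.95 against 3.79), MOS (4.49 against 9.20) and BMP15 (0.407 against 20.3). In HEN replicate 3 all of these ratios were lower than in HEN replicate 1. The 11 markers had a median HEN minus LEN difference of -4.72, all 11 had an unadjusted p under 0.05 where 16.9% of all transcripts were lower in HEN at that level, and 0 passed limma over all transcripts (adjusted p = 0.226 for ZP2). The groups did not overlap for 4 of the 11, where 20.3% of all transcripts had no overlap and 13.4% were lower in HEN without overlap. Without HEN replicate 1, all 11 passed as lower, as did 37.0% of all transcripts. NRN1 is not a member of this list, but the list and the gene were both chosen with earlier results of these libraries known.

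Granulosa markers varied less between the ovaries than NRN1. Of 16 listed, 8 were in the table and passed the filter, 3 of them lowest in HEN replicates 2 and 3, where 47.5% of all transcripts were. Their summed level was 457, 103 and 136 FPKM across the HEN ovaries, against 488, 254 and 299.7 FPKM across the LEN ovaries. The low HEN ovaries thus kept a larger share of the granulosa sum than of NRN1. FOXL2, the transcription factor of granulosa identity, was at 175, 33.1 and 55.2 FPKM across HEN ovaries and 152, 154 and 153 FPKM across LEN ovaries, although its position overlaps another gene. The receptor gene for follicle-stimulating hormone, FSHR, was at 18.9, 22.2 and 13.6 FPKM across HEN ovaries and 25.3, 19.8 and 25.4 FPKM across LEN ovaries, so that HEN replicate 2, with 2 NRN1 fragments, lay within the LEN range. FST, an activin-binding protein, was at 34.8, 22.7 and 42.3 FPKM across HEN ovaries, against 25.3, 30.02 and 20.2 FPKM across LEN ovaries.

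STAR, which carries cholesterol into mitochondria for steroid synthesis, was at 191, 3.16 and 7.92 FPKM across HEN ovaries and 253, 17.9 and 65.0 FPKM across LEN ovaries. LEN replicate 2 was low for STAR but not for NRN1. The steroidogenic factor gene NR5A1, which overlaps another gene, was at 29.8, 5.99 and 10.2 FPKM across HEN ovaries and 27.9, 23.2 and 29.8 FPKM across LEN ovaries. KITLG, the granulosa ligand of the KIT receptor, was at 5.601, 5.92 and 5.65 FPKM across HEN ovaries and 3.26, 5.66 and 3.74 FPKM across LEN ovaries. The list's median difference was -0.28, near that of all transcripts (-0.24), with 0 members at an unadjusted p under 0.05, and without HEN replicate 1 it was -0.19, with 3 of 8 passing as lower, near the 37.0% of all transcripts that did. The list median depended on the processing. It was -1.05 for members with a mean of at least 5 FPKM, where that of all transcripts was -0.22. After quantile normalization it was 0.19, where that of all transcripts was 0.07.

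Theca genes were split. The androgen-synthesis enzyme gene CYP17A1 was at 239.6, 0.095 and 0.146 FPKM across HEN ovaries, against 520.5, 33.5 and 185 FPKM across LEN ovaries, so LEN replicate 2 was again lower for it than for NRN1 relative to the other LEN ovaries. Aromatase, CYP19A1, was at 46.7, 2.61 and 5.69 FPKM across HEN ovaries and 40.7, 70.7 and 41.5 FPKM across LEN ovaries. The hedgehog receptor gene PTCH1 and its target GLI1 differed by 0.29 ± 0.30 and 0.34 ± 0.33 (SE). Of the 4 theca genes that passed the filter, 1 had an unadjusted p under 0.05, where 22.0% of all transcripts did, and 0 passed limma over all transcripts (adjusted p = 0.226 for CYP19A1).

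Stroma markers went the other way. Of 16 listed, 15 were in the table and passed the filter, and 1, THY1, was lowest in HEN replicates 2 and 3. The summed level was 1895, 2415 and 1969 FPKM across the HEN ovaries, against 1204, 1168 and 643 FPKM across the LEN ovaries. In this sum HEN replicate 1 went with the other HEN ovaries and not, as for NRN1, with LEN. Single markers differed in this. LUM was at 24.4, 106 and 66.5 FPKM across HEN ovaries and 24.0, 23.1 and 14.2 FPKM across LEN ovaries. PDGFRA was at 22.0, 35.5 and 41.1 FPKM across HEN ovaries and 25.3, 27.6 and 13.8 FPKM across LEN ovaries. The collagen gene COL1A2 was at 479, 388 and 389 FPKM across HEN ovaries, against 227, 221 and 101 FPKM across LEN ovaries, and COL3A1 differed by 2.01 ± 0.44 (SE). POSTN, a matricellular protein, was at 204, 708 and 256 FPKM across HEN ovaries and 147, 123 and 90.5 FPKM across LEN ovaries. The collagen-binding proteoglycan gene DCN was at 231, 351 and 213 FPKM across HEN ovaries and 205, 191 and 134 FPKM across LEN ovaries.

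LEN replicate 3, the ovary with the most NRN1, had the lowest level of COL1A2, COL3A1, POSTN and DCN. The nuclear receptor gene NR2F2 and the proteoglycan gene OGN, which both overlap another gene, differed by 0.14 ± 0.31 and 0.18 ± 0.51 (SE). The stroma list had a median difference of 0.89, 8 members higher and 0 lower at an unadjusted p under 0.05 where 5.10% of all transcripts were higher, and 9 higher without overlap of the groups where 6.92% of all transcripts were. No member passed limma over all transcripts (adjusted p = 0.226 for COL3A1).

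The profile of NRN1 over the 6 ovaries was then compared with all other transcripts tested. Each profile of log2(FPKM + 1) was centred on its own mean, and the distance is the root mean square difference from NRN1 over the 6 ovaries, in log2 units. The median distance of all 13327 other transcripts was 4.05, and 140 (1.05%) were nearer than 2. Of the 10 nearest, 5 carry no symbol. The 10 nearest with a symbol were CCNA1, KPNA7, TMOD1, BTG4, TMEM171, CAV3, ZP2, BIRC7, WEE2 and C14orf37, at distances of 0.65 to 1.02.

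**Figure D3:**
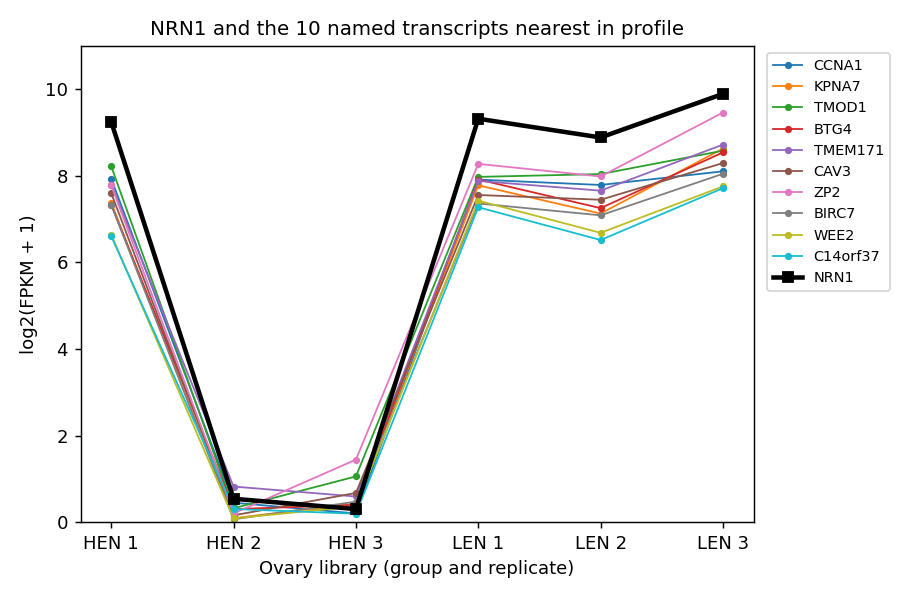
Levels in log2(FPKM + 1) of NRN1 (black squares) and the 10 named transcripts nearest to it in profile in each ovary; lines only join the points of a transcript. All 11 are high in HEN replicate 1 and the LEN ovaries and near 0 in HEN replicates 2 and 3. On this scale, which divides by transcript length, NRN1 is the highest of them in each of the 4 ovaries where they are high.

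CCNA1, the cyclin A of germ cells, was the nearest, at 243, 0.367 and 0.151 FPKM across the HEN ovaries and 239.97, 220.2 and 274 FPKM across the LEN ovaries. TMOD1, which caps the slow-growing ends of actin filaments, was at 297, 0.250 and 1.08 FPKM across HEN ovaries and 251, 262 and 382 FPKM across LEN ovaries. CAV3, the caveolin known from muscle, was at 193, 0.116 and 0.598 FPKM across HEN ovaries, against 187, 174 and 313 FPKM across LEN ovaries. All of these were high where NRN1 was high. BIRC7, an inhibitor of apoptosis, was at 160.4, 0.047 and 0.390 FPKM across HEN ovaries, against 164, 135 and 263 FPKM across LEN ovaries. These levels had the same 4 high and 2 low ovaries as NRN1, and HEN replicates 2 and 3 held 5 and 2 fragments of CCNA1 and 1 and 8 of BIRC7.

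TMEM171 was at 221, 0.770 and 0.510 FPKM across HEN ovaries and 235, 201 and 421 FPKM across LEN ovaries, and C14orf37 was at 96.5, 0.235 and 0.145 FPKM across HEN ovaries and 154, 90.7 and 209 FPKM across LEN ovaries. Of the 10, 4 (KPNA7, BTG4, ZP2 and WEE2) are in the oocyte list. Distance of this kind favours transcripts with as wide a range as NRN1. With each profile also divided by its SD, 1 of the same 10 transcripts stayed among the 10 nearest, whereas 9 or 10 stayed under each other alternative.

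Among the marker lists, oocyte and germ cell genes lay nearest, with distances of 0.73 to 2.88 and a median of 1.22. The next median distances were 3.36 for surface epithelium, 3.36 for neuron and nerve and 3.48 for theca markers. The median was 4.18 for granulosa, 4.47 for smooth muscle, 4.53 for endothelium and 4.55 for stroma markers. It was 4.91 for erythrocyte and 4.98 for leukocyte markers. CYP17A1 at 1.32 was the nearest marker outside the oocyte list, followed by NEFL at 1.43. The distances describe these 6 libraries and carry no test. They also follow the range of a transcript, so a gene of low level cannot come near NRN1 whatever its pattern. ELAVL4, for example, was low in the same ovaries as NRN1 and lay at 3.36. List distances were not computed on profiles divided by their SD.

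**Figure D4:**
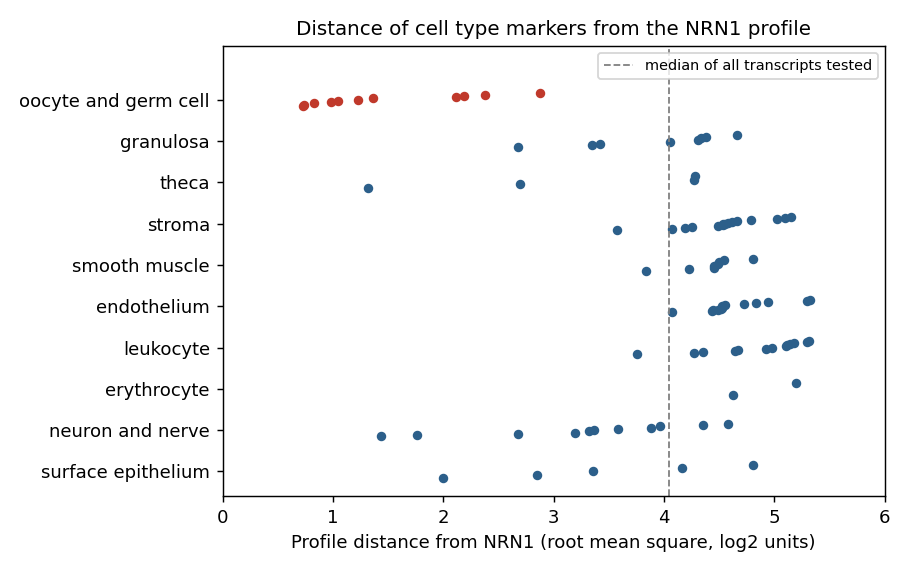
Distance of each cell type marker from the NRN1 profile (root mean square difference over 6 ovaries, log2 units), 1 point per gene, oocyte and germ cell genes in red; the dashed line is the median of all transcripts tested, 4.05. Oocyte and germ cell genes lie between 0.73 and 2.88 and stroma genes between 3.57 and 5.15. The distance follows the range of a transcript as well as its pattern.

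NRN1 is named for its role in neurons, and nerve fibres run through ovarian stroma, so neuronal and glial markers were examined. Of 20 listed, 17 were in the table and 11 passed the filter, 8 of them lowest in HEN replicates 2 and 3, where 47.5% of all transcripts were, and 9 with a lower mean in HEN, where 62.9% of all transcripts had one. NEFL, the light chain of neurofilaments, was at 287, 1.503 and 6.77 FPKM across HEN ovaries, against 287, 235 and 430.3 FPKM across LEN ovaries. The medium chain NEFM was at 42.6, 0.285 and 0.469 FPKM across HEN ovaries and 84.8, 22.5 and 96.7 FPKM across LEN ovaries. CHGB, a granin of secretory granules, was at 5.36, 2.29 and 1.37 FPKM across HEN ovaries and 15.3, 5.72 and 16.4 FPKM across LEN ovaries. These 3 genes were lowest in HEN replicates 2 and 3, as NRN1 was. ELAVL4, a neuronal RNA-binding protein, was at 2.10, 0.059 and 0.037 FPKM across HEN ovaries, against 2.61, 2.67 and 3.30 FPKM across LEN ovaries, so the groups did not overlap. UCHL1, a deubiquitinase of this list, was at 328, 34.1 and 34.9 FPKM across HEN ovaries, against 283, 295 and 467 FPKM across LEN ovaries. It was lowest in the same ovaries as NRN1, though not near 0 there. Other members had a larger profile distance from NRN1, which also follows range, with SYT1 at 4.58 and DBH at 4.36. The median distance of all transcripts was 4.05. Of those below the filter, SNAP25, GAP43 and TH were listed at 0 in HEN replicate 2, and GAP43 and TH also in HEN replicate 3. The list's median was -1.36, with 6 of 11 members lower at an unadjusted p under 0.05, where 16.9% of all transcripts were, and 0 past limma over all transcripts (adjusted p = 0.226 for NEFL).

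Endothelial and leukocyte genes had another pattern than NRN1. Endothelial markers (14 passed the filter) were highest in HEN replicates 2 and 3 for 10 genes and leukocyte markers (13 passed) for 9, where 19.6% of all transcripts were. VWF, the clotting factor of endothelium, was at 34.5, 108 and 111 FPKM across HEN ovaries and 11.6, 46.2 and 13.8 FPKM across LEN ovaries. Others examined were LYVE1, CDH5 and ESAM, with differences of 1.91 ± 0.52, 1.25 ± 0.39 and 0.64 ± 0.30 (SE). The macrophage receptor gene MARCO was at 53.9, 139 and 135 FPKM across HEN ovaries, against 20.7, 37.6 and 15.1 FPKM across LEN ovaries. C1QB, a complement subunit, and SPI1, a myeloid transcription factor, had differences of 1.46 ± 0.33 and 1.57 ± 0.51 (SE). PAX5, a transcription factor of B cells, had one of -1.56 ± 0.35 (SE) and was listed at 0 in HEN replicate 1. The summed leukocyte level was 810, 1457 and 1869 FPKM across HEN ovaries and 503, 848 and 456 FPKM across LEN ovaries, and its part in the NRN1 values was not tested.

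Smooth muscle markers (8 passed the filter) had a median difference of 0.75, with TPM1, KCNMB1, ACTA2 and MYLK at 0.77 ± 0.25, 0.74 ± 0.24, 0.82 ± 0.32 and 1.18 ± 0.46 (SE). The position of MYLK overlaps another gene. LMOD1, ACTG2, MYH11 and SYNPO2 were at 0.60 ± 0.26, 0.98 ± 1.00, 0.24 ± 0.65 and -0.48 ± 0.35 (SE). Of the 8, 7 had a higher and 1 a lower HEN mean, where 62.9% of all transcripts had a lower one. Surface epithelium markers (5 passed) were mixed, with the keratin gene KRT7 at 1.33 ± 0.36 and MSLN, EPCAM and CDH1 at -2.23 ± 0.72, -3.20 ± 1.18 and -1.42 ± 0.54 (SE). EPCAM, an epithelial adhesion molecule, was at 97.2, 3.07 and 2.96 FPKM across HEN ovaries and 103, 99.2 and 116 FPKM across LEN ovaries, low in the same ovaries as NRN1. Of the erythrocyte list, in which HBZ was listed at 0 in all libraries but LEN replicate 1, 2 genes passed, HBM and EPB42, and HBM was at 36.4, 97.9 and 496 FPKM across HEN ovaries and 77.8, 35.3 and 90.2 FPKM across LEN ovaries. No gene of these lists passed limma over all transcripts (adjusted p = 0.226 for KRT7).

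The genes that attach a GPI anchor to proteins such as neuritin were present in all ovaries. Of 29 listed, 20 were in the table and passed the filter, with 17 lower and 3 higher HEN means where 62.9% of all transcripts had a lower one. Their summed level was 389, 282 and 259 FPKM across the HEN ovaries and 386, 375 and 492 FPKM across the LEN ovaries. The lowest sum was that of HEN replicate 3. The median gene of the list was at 8.30 FPKM there, whereas NRN1 was at 0.235 FPKM. PIGM, the first mannosyltransferase of the pathway, was at 11.1, 2.92 and 2.12 FPKM across HEN ovaries and 15.3, 13.4 and 28.4 FPKM across LEN ovaries. DPM2, a subunit of the enzyme that makes its mannose donor, was at 18.2, 12.9 and 11.7 FPKM across HEN ovaries, against 27.8, 21.7 and 34.8 FPKM across LEN ovaries. PIGA, which starts the anchor, and PIGS, a subunit of the transamidase that transfers it, differed by -0.89 ± 0.36 and -0.99 ± 0.45 (SE). The list's median was -0.46, with 3 of 20 members lower at an unadjusted p under 0.05, near the 16.9% of all transcripts that were, and 0 past limma over all transcripts (adjusted p = 0.226 for PIGM).

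NRN1 was the most abundant of the GPI-anchored protein genes examined in 4 ovaries. Of 45 others listed, 34 were in the table, and NRN1 was above all 34 in HEN replicate 1 and in each LEN ovary, on the FPKM scale. The next highest in HEN replicate 1 was the prion protein gene PRNP, at 102 FPKM, and PRNP was at 140.4, 96.1 and 113 FPKM across the LEN ovaries. In HEN replicates 2 and 3, NRN1 was above 8 and 5 of the 34. Of the 31 that passed the filter, 12 had an unadjusted p under 0.05, where 22.0% of all transcripts did, 3 of them higher and 9 lower in HEN. They included the neural adhesion molecules OPCML, NTM and CNTN2, at -1.67 ± 0.43, -2.26 ± 0.72 and -1.55 ± 0.53 (SE), and the complement inhibitor CD59, at 217 and 89.5 FPKM in HEN replicates 2 and 3, 60.4 FPKM in HEN replicate 1 and 35.1 to 51.8 FPKM across LEN ovaries. No member passed limma over all transcripts (adjusted p = 0.226 for OPCML).

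Neurotrophic factors and receptors were examined because such factors induce neuritin in neurons. Of 19 listed, 15 were in the table and passed the filter, 10 of them lowest in HEN replicates 2 and 3, where 47.5% of all transcripts were. BDNF, the neurotrophin best known as an inducer of neuritin, was at 28.1, 1.16 and 0.597 FPKM across the HEN ovaries, against 44.9, 23.5 and 73.7 FPKM across the LEN ovaries. It stood in the order of NRN1 in the 4 higher ovaries, as 2 of the 15 genes and 8.72% of all transcripts tested did. RET, the receptor tyrosine kinase for the GDNF family, was at 5.96, 0.366 and 0.918 FPKM across HEN ovaries and 8.96, 7.92 and 10.1 FPKM across LEN ovaries. RET was thus low in the same ovaries as NRN1. NRTN, a RET ligand, and NTF3, another neurotrophin, differed by -1.60 ± 0.63 and -1.05 ± 0.42 (SE). Of the 15 genes, 5 had an unadjusted p under 0.05, all lower, where 16.9% of all transcripts were, and 0 passed limma over all transcripts (adjusted p = 0.226 for BDNF). Without HEN replicate 1, 8 passed as lower, where 37.0% of all transcripts did.

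Genes that neuronal activity induces together with NRN1 did not share its pattern as a list. Of 26 listed, 20 were in the table and passed the filter, 12 with a higher and 8 with a lower HEN mean, where 62.9% of all transcripts had a lower one, and the median difference was 0.11. GEM, a GTP-binding protein, was at 57.0, 143 and 103 FPKM across HEN ovaries and 23.9, 27.6 and 17.3 FPKM across LEN ovaries. The small GTPase gene RASD1 was at 7.17, 135 and 224 FPKM across HEN ovaries, against 10.7, 6.15 and 5.04 FPKM across LEN ovaries, high in the 2 ovaries where NRN1 was near 0. PLK3, a stress-responsive kinase, was at 46.2, 5.24 and 4.50 FPKM across HEN ovaries, against 71.8, 32.6 and 90.5 FPKM across LEN ovaries. In the 4 higher ovaries it stood in the order of NRN1, as 3 of the 20 genes and 8.72% of all transcripts tested did.

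The calcium, CREB and MEF2 genes through which activity reaches transcription had a median of 0.51 over the 15 that passed the filter, 14 with a higher HEN mean, where 62.9% of all transcripts had a lower one. CREB1 and CREM, transcription factors that bind cyclic AMP response elements, differed by 0.88 ± 0.35 and 0.59 ± 0.23, MEF2C by 0.81 ± 0.43 and SRF by -0.86 ± 0.47 (SE). Hypoxia induces neuritin in some human cells. Of 22 hypoxia response genes that passed the filter, 16 had a higher HEN mean, where 62.9% of all transcripts had a lower one, and 13 were highest in HEN replicates 2 and 3, where 19.6% of all transcripts were. In that list LOX, MXI1, IGFBP3 and PDK1 differed by 1.79 ± 0.57, -0.81 ± 0.30, 1.15 ± 0.43 and -0.80 ± 0.30 (SE). In these 3 lists 0 genes passed limma over all transcripts (adjusted p = 0.226 for GEM).

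Of the genes reported as partners of neuritin in rodent neurons, 4 passed the filter. Their median level was 9.83 to 13.6 FPKM across the ovaries, where that of all transcripts tested was 10.5 to 15.4 FPKM. Of the 4, 3 were lowest in HEN replicates 2 and 3, where 47.5% of all transcripts were. NRN1L, the paralog of NRN1, and the potassium channel gene KCND2 were not analysed here. NEURL1, a ubiquitin ligase that acts on Notch ligands, was at 8.29, 0.714 and 1.75 FPKM across HEN ovaries and 5.75, 4.14 and 9.87 FPKM across LEN ovaries. The insulin receptor gene INSR, which overlaps another gene, was at 15.6, 10.7 and 12.0 FPKM across HEN ovaries, against 20.4, 16.8 and 14.9 FPKM across LEN ovaries. JAG1, a Notch ligand, and NOTCH1, a Notch receptor, differed by -0.76 ± 0.35 and 0.66 ± 0.42 (SE). None of these 4 had an unadjusted p under 0.05 in limma, and their adjusted p values were 0.231 to 0.321.

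Genes before and after NRN1 on its scaffold differed in pattern. F13A1, the A chain of clotting factor XIII that macrophages also make, lies 52429 bases before NRN1 and was at 6.45, 27.9 and 45.5 FPKM across the HEN ovaries, against 2.28, 2.46 and 1.58 FPKM across the LEN ovaries. LY86, a leukocyte surface protein 207356 bases away on that side, was at 50.4, 262 and 319 FPKM across HEN ovaries and 59.0, 83.6 and 50.2 FPKM across LEN ovaries. Both were highest in HEN replicates 2 and 3, where NRN1 was near 0. FARS2, the mitochondrial phenylalanyl-tRNA synthetase, lies 81006 bases after NRN1 and was at 20.04, 14.5 and 11.3 FPKM across HEN ovaries and 17.7, 20.9 and 29.5 FPKM across LEN ovaries. RPP40, a subunit of ribonuclease P, was at 30.9, 11.1 and 8.88 FPKM across HEN ovaries and 28.6, 31.1 and 50.8 FPKM across LEN ovaries. It differed by -1.23 ± 0.48 (SE). The 2 other neighbours carry no symbol. The one before NRN1 differed by 0.49 ± 0.29 (SE). The one after NRN1 was at 85.9, 38.2 and 33.5 FPKM across HEN ovaries and 68.2, 68.3 and 147 FPKM across LEN ovaries. All neighbours after NRN1 were lowest in HEN replicates 2 and 3, as 47.5% of all transcripts were, but not near 0 there. F13A1 differed by 2.81 ± 0.65 (SE), with no overlap of the groups where 6.92% of all transcripts were higher in HEN without overlap, and did not pass limma over all transcripts (adjusted p = 0.226).

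**Figure D5:**
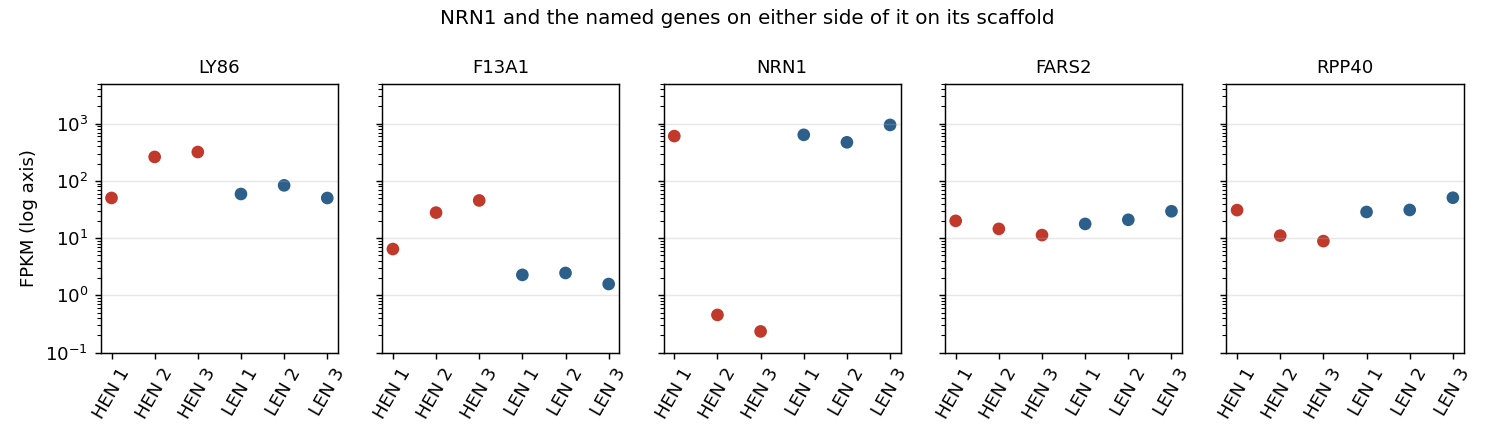
Levels in FPKM on a log axis of NRN1 and the named genes on either side of it on its scaffold, in scaffold order from left to right, HEN in red and LEN in blue. F13A1 and LY86 are highest in HEN replicates 2 and 3, where NRN1 is below 1 FPKM and FARS2 is at 14.5 and 11.3 FPKM.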

How the data were processed

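The authors deposited FPKM values for 6 libraries, per the file name, on 17191 rows of Ensembl duck transcripts; 22 rows repeated a transcript with the same values and were dropped. Aligner, counter, strandedness and genome build are not given in the sources used here, and coordinates were taken as deposited. The table itself gave 11101 symbols and, through Entrez identifiers, a RefSeq table of the assembly IASCAAS_PekinDuck_T2T gave 710 more. Of 8314 rows with such an identifier, 7663 matched.

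Fragments per library (18213744 to 19831761) were worked out from the smallest steps in the values of 299 short noncoding genes: 100% of 968 values under 200 fragments were whole within 0.02. For 15180 of 15181 transcripts with 4 or more values above 0, a length made every value whole within 0.01, and NRN1's was its annotated 234 bases.

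Levels were analysed as log2(FPKM + 1), which understates changes of low genes, for the 13328 transcripts whose mean reached 1 FPKM. The HEN and LEN groups entered limma 3.58.1 under R 4.3.3 (group as the only term, trend, Benjamini-Hochberg adjustment, threshold 0.05). The fit was tried on values simulated with the LEN spread in both groups, which does not cover a split group such as HEN. Each symbol was represented by its row with the highest mean. Named were NRN1, NRN1L and the partner genes, 3 neighbours on each side, the 10 nearest named profiles, the 6 most abundant oocyte, granulosa and stroma markers, up to 4 members of each other list by unadjusted p, and markers at 0 in a library, of which some are not reported here. THY1, PRNP, UCHL1, SYT1, DBH, LUM, PDGFRA, the remaining smooth muscle markers and the genes next to NRN1 in level were chosen after their values were seen. The gene and the 17 lists were chosen with earlier results of these data known, and list medians and counts are descriptions. The ducks are separate animals. No label gives a batch.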

Additional observations from a re-analysis of the deposited data

How the results depend on the processing

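The NRN1 difference of -6.00 was negative under all 15 alternatives tried. Summing rows per symbol, with 1 NRN1 row, and blocking by replicate number could not change it. NRN1 was selected on these values, so its sign is a description. The difference was -7.09 and -7.33 with pseudocounts of 0.1 and 0.01 FPKM, and -5.68 to -6.52 under the 4 other scalings. Leaving out 1 library gave -8.94 to -4.47, and without HEN replicates 2 and 3 the difference was -0.12. NRN1 exceeded 7.93% and 5.27% of transcripts in HEN replicates 2 and 3 among those with a mean of at least 1 FPKM, 23.8% and 19.5% among protein-coding ones, and 99.5% in LEN replicate 2 among those with a mean of at least 1 FPKM. By fragments not divided by length, chosen after seeing the data, it exceeded 94.7%, 7.87% and 4.69% in HEN replicates 1, 2 and 3 and 94.9%, 91.9% and 97.3% in LEN. That ranking used another set, the 14890 protein-coding transcripts with a recovered length. The count of transcripts called was 0, with 2929 at an unadjusted p under 0.05 in limma. It was 1 with a pseudocount of 0.1, 4 with no filter, 1 after scaling to TPM and 7922 with arrayWeights. Leaving out 1 library gave 0 to 6501, the highest without HEN replicate 1. With arrayWeights that same library had a weight of 0.114, the lowest of all, so it counted for little there too. Of the 10 nearest transcripts, 1 was shared when profiles were divided by their SD, and 9 to 10 when 1 library was left out. Of 289 list medians under alternatives, 263 stayed within the spread between libraries, 26 moved beyond it and 8 had another sign. The 263 include the replicate block and the fit with no filter, which could not change any list median. Leaving out HEN replicates 2 and 3 moved the medians of all lists except stroma, smooth muscle and activity-regulated genes. The cause was not tested.

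With the replicate number as a block, 0 transcripts were called and the NRN1 difference was -6.00, a value that this block could not change. Deviations of same-numbered libraries correlated at 0.017, 0.382 and -0.423, so the numbers were not taken to pair the ducks. The lowest levels were limited by depth: 3 fragments on NRN1 equalled 0.646 to 0.704 FPKM.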
